A study of Mus musculus with 12 samples.

Results

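The 47 genes described here encode the machinery that copies DNA in S phase, from the marking of replication origins to the repackaging of the new strands. They were taken by symbol from a fixed list, and all 47 were found among the 56748 genes of the deposited matrix. All of them were also among the 15033 genes with enough counts to be tested, so none was lost to the filter on low counts. The lowest count of any of them in any library was 29.

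Replication starts at origins bound by the origin recognition complex, where Cdc6 and Cdt1 load the ring-shaped MCM2-7 helicase in G1. In S phase Mcm10, Cdc45 and the GINS complex turn the loaded ring into an active helicase, polymerase alpha and primase lay down primers, and polymerases delta and epsilon extend them on the sliding clamp PCNA. Many of these genes are transcribed by E2F factors as cells pass from G1 into S phase. Macrophages grown in M-CSF can still divide, and type I interferons are best known in them for inducing antiviral genes.

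Total RNA was sequenced from bone marrow-derived macrophages (BMDM) of female C57BL/6J mice. Marrow cells were grown with 20 ng/mL M-CSF, polarized to an M2-like state by 48 hours of 10 ng/mL IL4, and split over 4 conditions that each lasted 72 hours and gave 3 libraries. The untreated control received plain BMDM medium. The eGFP supernatant condition received medium conditioned by Dox-treated YUMM5.2 eGFP cells, a mouse melanoma line carrying a lentiviral Tet-responsive eGFP gene. The Ifnb1eGFP supernatant condition received medium conditioned by Dox-treated YUMM5.2 Ifnb1eGFP cells, whose Tet-responsive vector carries Ifnb1 together with eGFP, diluted to 1500 pg/mL IFNβ. The rIFNβ condition received recombinant IFNβ at the same 1500 pg/mL without tumor cell supernatant. Both donor lines had been kept in 1 μg/mL Dox for 72 hours and the eGFP supernatant was diluted in the same ratio. Supernatant was thus added in these conditions and not in the other 2, and whether the donor lines released the same products was not tested. The series gives 3 mice per condition, but not whether libraries with the same number share a mouse, and the age of the marrow donors was not given for this experiment. Each p-value therefore measures the spread between these libraries. The culture is an in vitro model set up without tumor cells.

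Libraries held 31526034 to 45348457 counts. Macrophage markers (Csf1r, Adgre1, Cd68, Mertk, Fcgr1, Lyz2 and Itgam) summed to 9643 CPM (counts scaled to 1000000 per library) or more in every library, with all 7 listed genes detected. They summed to 14114 to 15256 CPM in the untreated control, 17920 to 18448 with eGFP supernatant, 10282 to 10576 with Ifnb1eGFP supernatant and 9643 to 9817 with rIFNβ. Progenitor markers, of which 3 of 8 passed the filter, summed to 8.02 to 10.7 CPM in the untreated control, 6.11 to 7.48 with eGFP supernatant, 2.01 to 5.69 with Ifnb1eGFP supernatant and 2.77 to 4.95 with rIFNβ. Neutrophil markers (2 of 7 tested) summed to 13.0 to 21.1 CPM without IFNβ and 4.59 to 11.4 with it, stromal markers (6 of 7 tested) to 30.5 to 83.6 CPM over all libraries, and lymphoid, dendritic, mast cell and erythroid lists to at most 2.13 CPM each. The IL4-polarized macrophage list (Arg1, Retnla, Chil3, Mrc1, Mgl2 and Clec10a) summed to 749 to 1032 CPM over all libraries. The melanoma list summed to 153 to 168 CPM without IFNβ and 88.1 to 103 CPM with it, nearly all from Mitf, which macrophages also express. Of its other 6 genes Pmel alone passed the filter, and Tyrp1 was at 0 in every library. The part of these markers in the results below was not tested. The 14 interferon-stimulated genes of a list written for this work summed to 301 to 444 CPM in 5 of the libraries without IFNβ and to 13683 CPM or more in each library with it. The other library without IFNβ, eGFP supernatant replicate 2, stood apart at 1386 CPM. The main counts of the whole set and of the lists set beside it are therefore also given without it, but not those by role or promoter match.

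IFNβ raised most of the replication machinery, by modest factors. In the mean IFNβ effect, which averages Ifnb1eGFP against eGFP supernatant with rIFNβ against untreated control, 38 of the 47 genes rose and 3 fell (edgeR quasi-likelihood test, Benjamini-Hochberg adjusted p up to 0.05), while 36.1% of all genes tested rose and 30.1% fell. The median log2 fold change was 0.45 over the 47 genes and 0.03 over all genes tested. The largest rises were those of the primase subunit Prim1 (2.71-fold), Mcm10 (2.44-fold), the helicase subunit Mcm6 (2.39-fold), the clamp loader subunit Rfc3 (2.25-fold), Cdc6 (2.16-fold) and the polymerase epsilon catalytic subunit Pole (2.11-fold). The nuclease Dna2 (0.378-fold), the small polymerase delta subunit Pold4 (0.739-fold) and the clamp itself, Pcna (0.801-fold), went down. Since the RNA was bulk, a change in the number of cells in S phase cannot be told apart from a change in RNA per cell.

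Each IFNβ source gave a similar count on its own. Ifnb1eGFP supernatant raised 34 of the 47 genes and lowered 3 against eGFP supernatant, against 30.1% and 25% of all genes tested, with a median log2 fold change of 0.44. Recombinant IFNβ raised 35 and lowered 3 against the untreated control, where 30.7% of all genes tested rose and 24.6% fell, with a median of 0.47. Without eGFP supernatant replicate 2, 30 genes rose and 3 fell between the supernatants (median 0.40; all genes 26.2% and 21.7%), and 38 rose and 3 fell in the mean effect (34.2% and 28.5%). No gene of the 47 reached the stricter threshold the study used, a log2 fold change of 2 or more in either direction at an adjusted p up to 0.01, which 5.39% of all genes passed between the supernatants and 5.77% between rIFNβ and untreated control. With a log2 fold change of 1 or more and an adjusted p up to 0.05, Cdc6, Mcm6, Mcm10, Prim1, Pole and Rfc3 rose and Dna2 fell in both comparisons, and Pold1 rose in addition with rIFNβ, beside 15.4% and 16% of all genes past that threshold in either direction. For 30 of the 47 genes all 6 libraries with IFNβ lay above all 6 without, as for 25.5% of all genes, and for Dna2, Pold4 and Pcna they lay below, as for 21.2%. Without eGFP supernatant replicate 2 these counts were again 30 and 3, beside 25.7% and 21.4% of all genes, and those at a log2 fold change of 1 or more between the supernatants were 5 higher and 1 lower, beside 6.96% and 7.73%.

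**Figure D1:**
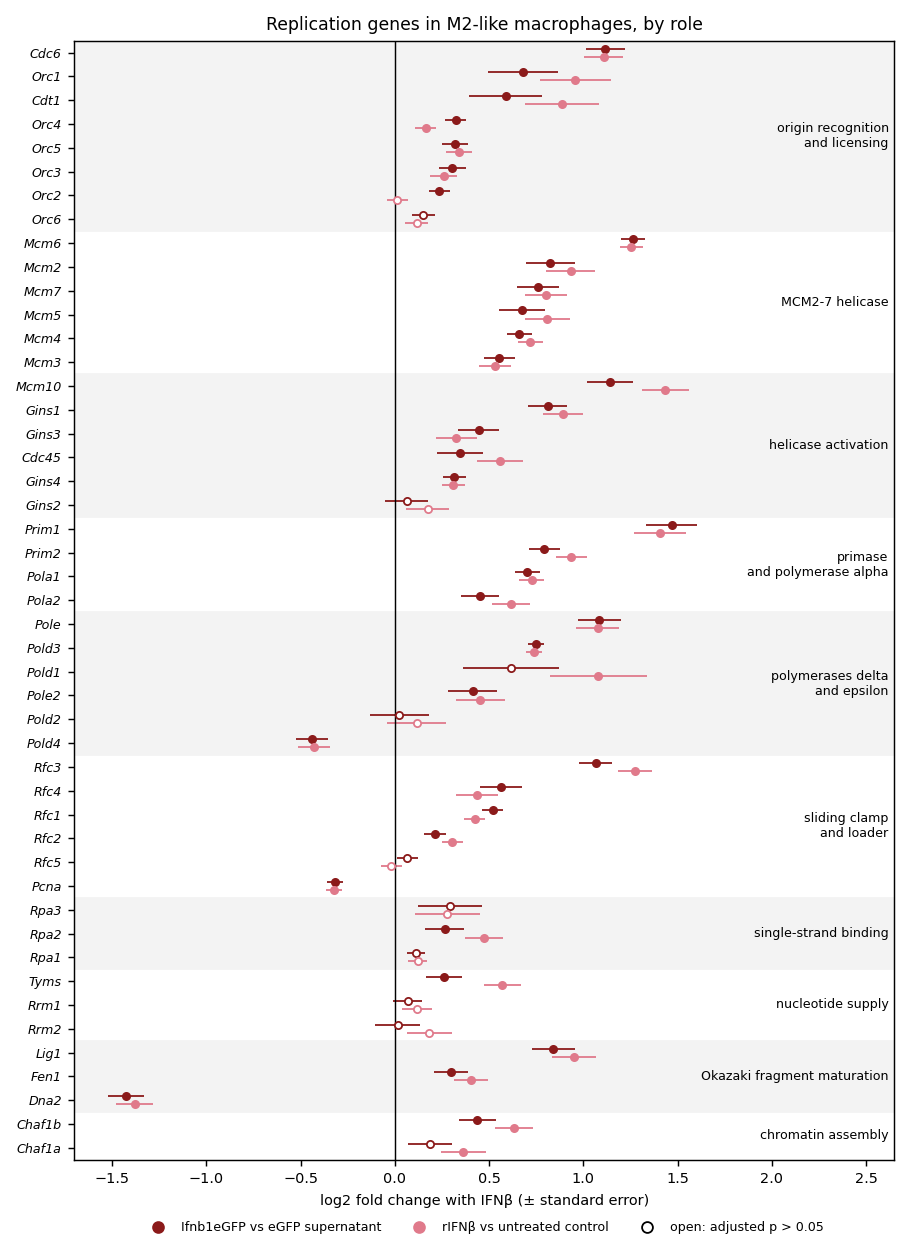
Log2 fold changes (x axis, bars show the standard error) of the 47 replication genes, grouped by role, for Ifnb1eGFP against eGFP supernatant (dark red) and rIFNβ against untreated control (pink), each from 3 libraries a condition. Most points lie right of 0 for both IFNβ sources, Prim1 at 1.47 and 1.41, and Dna2 lies farthest left at -1.43 and -1.38.

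Their promoters were read next, because E2F factors are known regulators of many of these genes. RefSeq promoter windows of 250 bases before and 50 bases after a gene's RefSeq start (table of build GRCm38.p6) were listed for 40 of the 47 genes. They were searched on both strands for the E2F-type letters TTTCCCGC, TTTCGCGC, TTTGCCGC and TTTGGCGC, the CCAAT box (CCAAT), the cell cycle homology region (TTTGAA) and the interferon response element (GAAANNGAA), counting overlapping matches. In the first window listed for each gene, an E2F-type match stood in 14 of 40 replication genes (35.0%), in 2.32% of all 27025 genes with a window and in 4.12% of the 10371 tested genes with one. CCAAT stood in 24 of the 40 (60.0%; 39.1% of tested genes), TTTGAA in 4 (10.0%; 12.3%) and GAAANNGAA in 1 (2.5%; 7.53%). These shares describe letters in a window, not bound sites.

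All 14 genes with an E2F-type match rose in the mean IFNβ effect, where 36.1% of all genes tested rose and 30.1% fell. The median log2 fold change of the 14 was 0.74. Of the 26 genes without a match in that window, 18 rose and 3 fell, with a median of 0.31, and the genes that fell (Dna2, Pold4 and Pcna) were all among them. Prim1 and Mcm10, which rose most, had no match in that window either, and Lig1 had one only in another of its 3 windows. The Mcm10 window ends in TTTGGCG, so a TTTGGCGC running past its end could not be seen. How many of all tested genes with a match rose was not counted, and a part of E2F factors in the response was not tested. The windows printed here are those of the 6 genes with a match and the 2 without whose IFNβ effect had the smallest p. Each occurred exactly once in GRCm39, and capitals mark the E2F-type matches. The windows of Cdc6 and Mcm7 lie inside these genes as annotated in GENCODE M39. There Cdc6 begins at 98798507 and Mcm7, on the minus strand, at 138170684. Mcm6 lies at chr1:128287393-128287692 (minus strand) with 3 matches, of which 2 overlap, Pold3 at chr7:99770660-99770959 (minus) with 1, Rfc3 at chr5:151574624-151574923 (minus) with 2, Pola1 at chrX:92675712-92676011 (minus) with 1, Cdc6 at chr11:98798727-98799026 (plus) with 1 and Mcm7 at chr5:138170096-138170395 (minus) with 2.
Mcm6: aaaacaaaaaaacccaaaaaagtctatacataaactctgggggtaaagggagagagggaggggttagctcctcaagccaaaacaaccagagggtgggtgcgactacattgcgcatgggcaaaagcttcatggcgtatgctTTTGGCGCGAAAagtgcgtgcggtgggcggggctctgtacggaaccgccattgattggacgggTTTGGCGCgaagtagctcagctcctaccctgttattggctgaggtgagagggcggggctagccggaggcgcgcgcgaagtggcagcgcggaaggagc
Pold3: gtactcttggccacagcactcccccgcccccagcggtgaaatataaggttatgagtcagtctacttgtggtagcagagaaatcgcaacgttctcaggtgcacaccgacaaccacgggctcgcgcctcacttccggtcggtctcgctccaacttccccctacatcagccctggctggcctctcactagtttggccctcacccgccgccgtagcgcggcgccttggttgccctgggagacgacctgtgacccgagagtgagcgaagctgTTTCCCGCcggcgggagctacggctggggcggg
Rfc3: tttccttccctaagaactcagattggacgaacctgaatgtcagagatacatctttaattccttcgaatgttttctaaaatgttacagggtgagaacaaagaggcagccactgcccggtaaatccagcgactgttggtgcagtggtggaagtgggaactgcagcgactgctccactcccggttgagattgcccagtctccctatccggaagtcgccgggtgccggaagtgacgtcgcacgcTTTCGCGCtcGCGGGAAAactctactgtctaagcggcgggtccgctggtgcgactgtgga
Pola1: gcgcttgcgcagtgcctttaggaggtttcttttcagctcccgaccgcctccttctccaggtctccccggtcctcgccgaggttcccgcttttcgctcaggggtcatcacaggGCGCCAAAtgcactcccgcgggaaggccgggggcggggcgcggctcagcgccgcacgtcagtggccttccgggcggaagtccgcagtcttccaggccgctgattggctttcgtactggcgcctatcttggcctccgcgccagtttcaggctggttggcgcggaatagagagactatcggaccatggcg
Cdc6: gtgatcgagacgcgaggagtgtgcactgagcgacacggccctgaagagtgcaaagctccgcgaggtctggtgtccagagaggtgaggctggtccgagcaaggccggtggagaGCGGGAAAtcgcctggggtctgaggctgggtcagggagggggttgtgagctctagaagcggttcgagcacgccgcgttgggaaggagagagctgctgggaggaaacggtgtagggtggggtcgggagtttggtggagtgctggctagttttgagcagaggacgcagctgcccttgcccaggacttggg
Mcm7: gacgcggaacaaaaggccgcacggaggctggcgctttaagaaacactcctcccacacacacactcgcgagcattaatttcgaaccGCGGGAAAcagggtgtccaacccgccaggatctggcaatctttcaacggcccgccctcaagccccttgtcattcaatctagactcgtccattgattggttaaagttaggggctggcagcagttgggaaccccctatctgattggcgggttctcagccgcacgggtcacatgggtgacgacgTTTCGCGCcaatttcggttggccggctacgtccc
The windows without a match were those of Dna2, at chr10:62782558-62782857 (plus), and Mcm10, at chr2:5017553-5017852 (minus). The Mcm10 window held 3 CCAAT matches and the Dna2 window held none.
Dna2: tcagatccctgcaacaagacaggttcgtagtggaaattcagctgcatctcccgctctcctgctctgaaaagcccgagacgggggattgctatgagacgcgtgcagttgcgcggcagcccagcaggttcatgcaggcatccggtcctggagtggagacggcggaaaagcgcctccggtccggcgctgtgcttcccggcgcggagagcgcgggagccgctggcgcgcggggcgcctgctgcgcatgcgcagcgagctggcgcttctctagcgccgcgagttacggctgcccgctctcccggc
Mcm10: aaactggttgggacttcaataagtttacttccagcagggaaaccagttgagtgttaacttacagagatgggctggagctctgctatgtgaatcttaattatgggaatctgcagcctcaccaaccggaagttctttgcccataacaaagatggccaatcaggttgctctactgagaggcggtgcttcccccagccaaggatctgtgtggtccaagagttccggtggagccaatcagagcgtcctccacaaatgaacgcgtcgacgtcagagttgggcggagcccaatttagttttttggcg
Over the 14 genes there were 20 E2F-type matches, 5 of which began within the last 100 bases before the start and 8 at or after it.

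**Figure D2:**
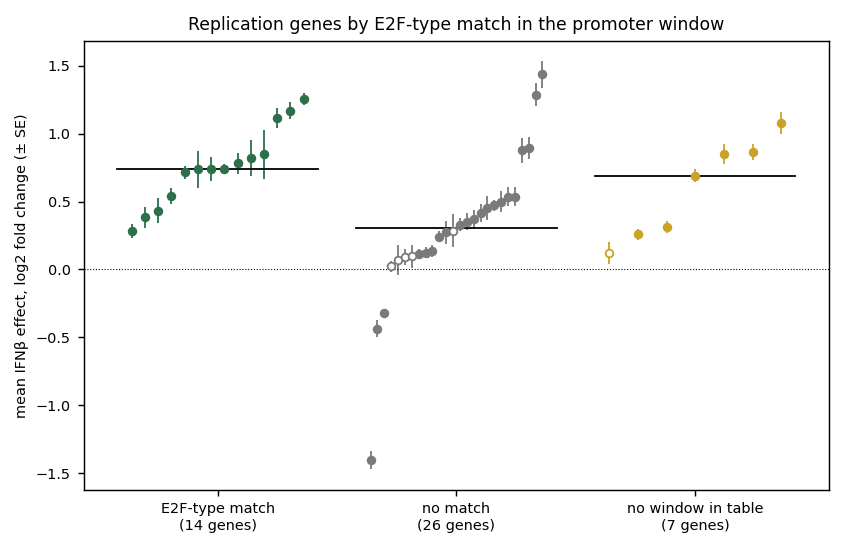
Mean IFNβ effect (y axis, log2 fold change, bars show the standard error) of each replication gene, split by whether its RefSeq promoter window held an E2F-type match. Lines mark group medians, 0.74 for the 14 genes with a match and 0.31 for the 26 without, filled points passed an adjusted p of 0.05, and 7 genes had no window in the table.

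All 8 genes of origin recognition and licensing rose in the mean effect, by 0.12 to 1.11 on the log2 scale, 7 of them between the supernatants and 6 with rIFNβ. Cdc6, which recruits the helicase to the origin complex, stood at 3.81, 4.36 and 4.40 CPM in the untreated libraries and 3.89, 3.63 and 4.47 CPM with eGFP supernatant, against 7.79, 8.91 and 9.30 CPM in the Ifnb1eGFP supernatant libraries and 8.48, 9.02 and 9.65 CPM with rIFNβ. The IFNβ libraries lay wholly above the others, and the log2 fold change was 1.12 ± 0.10 (standard error, adjusted p = 3.29e-06) between the supernatants and 1.11 ± 0.10 (adjusted p = 3.44e-06) with rIFNβ. Orc5, a subunit of the origin recognition complex, stood at 17.8, 18.8 and 17.7 CPM in the untreated libraries and 20.2, 18.1 and 17.04 CPM with eGFP supernatant, compared with 24.5, 22.5 and 22.1 CPM in the Ifnb1eGFP supernatant libraries and 24.1, 22.3 and 22.4 CPM with rIFNβ. It rose by less, 0.33 ± 0.05 in the mean effect (adjusted p = 9.97e-05), again without overlap. Orc1, the subunit that comes and goes with the cell cycle, was the scarcest gene of the set for its length (0.187 CPM per kb of exon untreated) and rose 1.76-fold (adjusted p = 0.000184). It shares 26 bases with Prpf38a on the other strand, which rose by 2.04 on the log2 scale and had a mean count of 1703. Shared bases, here and below, are those of whole gene spans with introns. How many of them are exon bases was not counted.

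Cdt1, the other loading factor, varied between the Ifnb1eGFP libraries, which held 24.8, 47.5 and 35.2 CPM against 40.1, 50.1 and 40.5 CPM with rIFNβ and 20.7 to 27.3 CPM in the 6 libraries without IFNβ. Its lowest Ifnb1eGFP library therefore overlapped the controls, and its rise of 0.59 between the supernatants (adjusted p = 0.0229) was not called without eGFP supernatant replicate 1 or 3 (adjusted p = 0.0612 and 0.0819) or without Ifnb1eGFP supernatant replicate 2 (0.34, adjusted p = 0.0885). Orc2 and Orc6 made some of the smallest rises, 0.12 (adjusted p = 0.0147) and 0.13 (adjusted p = 0.0187) in the mean effect, and overlapped between the libraries with and without IFNβ. Orc2 rose between the supernatants (0.24, adjusted p = 0.00343), while with rIFNβ its difference was 0.01 (95% interval -0.11 to 0.13) and was negative under RLE factors, DESeq2 and only the compared conditions. Orc6 was called in neither comparison alone (0.15, adjusted p = 0.0578, and 0.12, adjusted p = 0.139). Without Ifnb1eGFP supernatant replicate 1, the mean effects of Orc2 and Orc6 were 0.06 (adjusted p = 0.138) and 0.08 (adjusted p = 0.177). Orc6 shares 213 bases with Vps35 on the other strand, a gene with a mean count of 10973 that fell by 0.36.

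All 6 subunits of the MCM2-7 helicase rose in both comparisons, and in each the libraries with IFNβ lay above those without. Mcm6 stood at 72.7, 77.9 and 76.3 CPM in the untreated libraries and 69.1, 82.9 and 76.6 CPM with eGFP supernatant, against 182, 181 and 185 CPM in the Ifnb1eGFP supernatant libraries and 171, 184 and 186 CPM with rIFNβ. Its rise was the most certain of the set, at 1.26 ± 0.06 for either source (adjusted p = 2.02e-08 and 1.83e-08). Mcm4 stood at 29.4, 32.4 and 33.9 CPM in the untreated libraries and 31.45, 31.9 and 35.1 CPM with eGFP supernatant, against 48.9, 51.9 and 54.8 CPM in the Ifnb1eGFP supernatant libraries and 51.0, 54.7 and 52.0 CPM with rIFNβ, a rise of 0.69 ± 0.05 in the mean effect (adjusted p = 1.1e-07). Mcm2, Mcm7, Mcm5 and Mcm3 rose by 0.88, 0.78, 0.74 and 0.54 in the mean effect, with adjusted p between 3.59e-06 and 1.23e-05. The ring holds 1 copy of each subunit, yet the transcripts were unequal per length. In the untreated control they ran from 2.90 CPM per kb of exon for Mcm2 to 13.9 for Mcm6, and with Ifnb1eGFP supernatant from 4.86 for Mcm2 to 33.6 for Mcm6. Exon length in all such values merges every annotated exon of a gene and can exceed that of the transcript expressed.

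The genes that activate the loaded helicase split into large and small responses. Mcm10, which helps the loaded rings separate and start unwinding, stood at 4.64, 5.68 and 5.77 CPM in the untreated libraries and 5.43, 6.80 and 5.80 CPM with eGFP supernatant, compared with 11.4, 13.4 and 15.01 CPM in the Ifnb1eGFP supernatant libraries and 13.6, 14.7 and 15.3 CPM with rIFNβ. It rose by 1.14 ± 0.12 between the supernatants (adjusted p = 9.96e-06) and by 1.43 ± 0.12 with rIFNβ (adjusted p = 1.61e-06). Gins1 stood at 2.51, 2.63 and 3.10 CPM in the untreated libraries and 2.43, 2.75 and 2.86 CPM with eGFP supernatant, against 4.53, 4.67 and 4.91 CPM in the Ifnb1eGFP supernatant libraries and 5.16, 4.88 and 5.31 CPM with rIFNβ. It rose 1.80-fold in the mean effect (adjusted p = 1.01e-06), and its libraries did not overlap. The 4 GINS proteins form 1 complex, but the other members moved less: Gins3 rose by 0.39 and Gins4 by 0.31, and Gins2 had a difference of 0.12 with a 95% interval of -0.06 to 0.30 (adjusted p = 0.22). Cdc45, their partner in the active helicase, rose by 0.45 (adjusted p = 0.000621). Between the supernatants its rise was lost without eGFP supernatant replicate 1 or 2 or Ifnb1eGFP supernatant replicate 2 or 3 (adjusted p 0.0558 to 0.109).

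All 4 subunits of polymerase alpha and primase, the enzyme that starts each new strand, rose without overlap. Prim1 (GRCm39 chr10:127851031-127867682, plus strand), the catalytic primase subunit, stood at 4.07, 3.86 and 3.90 CPM in the untreated libraries and 3.39, 3.14 and 4.69 CPM with eGFP supernatant, against 9.94, 10.1 and 11.03 CPM in the Ifnb1eGFP supernatant libraries and 9.23, 10.5 and 11.7 CPM with rIFNβ. Its rise of 1.44 ± 0.10 in the mean effect (adjusted p = 1.11e-07) was the largest of the 47, in size of increase. Prim2, the regulatory primase subunit, stood at 6.52, 7.61 and 8.23 CPM in the untreated libraries and 7.53, 8.14 and 8.01 CPM with eGFP supernatant, compared with 14.0, 13.7 and 13.4 CPM in the Ifnb1eGFP supernatant libraries and 13.5, 14.6 and 14.8 CPM with rIFNβ, and rose by 0.86 ± 0.06 (adjusted p = 9.44e-08). Pola1, the polymerase alpha catalytic subunit, stood at 13.4, 13.7 and 12.8 CPM in the untreated libraries and 12.2, 14.2 and 13.2 CPM with eGFP supernatant, against 20.9, 21.3 and 22.4 CPM in the Ifnb1eGFP supernatant libraries and 23.2, 21.5 and 21.3 CPM with rIFNβ. It rose by 0.71 ± 0.05 (adjusted p = 8.14e-08), and the accessory subunit Pola2 by 0.54 ± 0.07 (adjusted p = 3.86e-05).

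The polymerases that extend the strands did not move as a block. Of 6 subunits of polymerases delta and epsilon, 4 rose, 1 fell and 1 was not called in the mean effect. Pold3, the delta subunit that binds the clamp, stood at 24.0, 23.9 and 24.5 CPM in the untreated libraries and 26.9, 24.8 and 25.6 CPM with eGFP supernatant, against 43.9, 42.3 and 43.8 CPM in the Ifnb1eGFP supernatant libraries and 39.6, 40.4 and 40.6 CPM with rIFNβ. It rose by 0.74 ± 0.03 in the mean effect (adjusted p = 1.36e-09). Pole stood at 8.46, 8.46 and 8.14 CPM in the untreated libraries and 6.29, 8.24 and 8.18 CPM with eGFP supernatant, compared with 14.1, 17.1 and 16.96 CPM in the Ifnb1eGFP supernatant libraries and 15.6, 18.5 and 18.6 CPM with rIFNβ, a rise of 1.08 ± 0.08 (adjusted p = 2.84e-07). Neither gene overlapped between libraries with and without IFNβ.

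Pold4 (chr19:4281953-4287165, plus strand) went the other way. It stood at 42.03, 40.9 and 42.8 CPM in the untreated libraries and 37.1, 39.6 and 38.02 CPM with eGFP supernatant, against 24.3, 32.6 and 27.6 CPM in the Ifnb1eGFP supernatant libraries and 31.4, 32.0 and 29.9 CPM with rIFNβ. It fell by 0.44 in the mean effect (standard error 0.06, adjusted p = 5.21e-05), and its IFNβ libraries all lay below the others. The gene span of Pold4 shares 1399 bases with that of the same-strand gene Gm45928, to which counting could assign part of the Pold4 reads. Gm45928 had a mean count of 68.2 and a log2 fold change of -1.51. Pold1, the catalytic delta subunit, varied between the Ifnb1eGFP supernatant libraries. It stood at 9.48, 22.9 and 14.2 CPM there, against 8.37 to 11.6 CPM in the 6 libraries without IFNβ and 19.0 to 23.8 CPM with rIFNβ. In the mean effect it was called in all 12 fits with 1 library left out (0.66 to 0.93). Its rise was 1.08 ± 0.26 with rIFNβ (adjusted p = 0.0037), while between the supernatants the difference was 0.62 ± 0.25 (adjusted p = 0.0594), which was called under library totals (adjusted p = 0.0478), no filter (0.0247) and DESeq2 (0.0408). Without Ifnb1eGFP supernatant replicate 1 the latter was 0.83 (adjusted p = 0.00321), and without replicate 2 it was 0.23 (adjusted p = 0.300). Pole2 rose by 0.43 (adjusted p = 0.00141), and Pold2 had a difference of 0.07 with a 95% interval of -0.17 to 0.31. The gene span of Pole2 shares 2498 bases with that of the same-strand gene Gm49384, to which counting could likewise assign part of the Pole2 reads. Gm49384 had a mean count of 90.3 and a log2 fold change of 0.37.

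**Figure D3:**
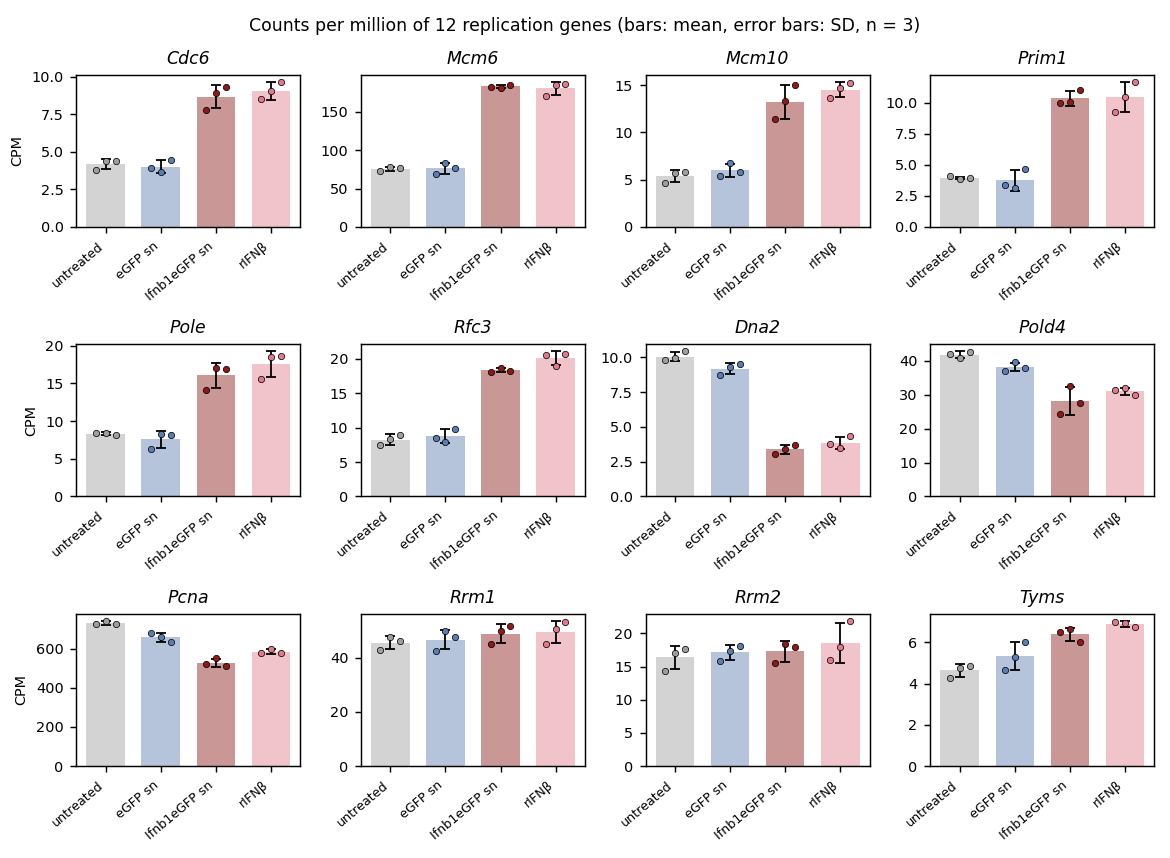
CPM (y axis) of 12 replication genes in each library (points), with the mean (bar) and SD (error bar, n = 3) of each condition, sn being supernatant. Cdc6, Mcm6, Mcm10, Prim1, Pole and Rfc3 sit higher in all 6 IFNβ libraries and Dna2, Pold4 and Pcna lower, while Rrm1 and Rrm2 overlap across the 4 conditions.

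The sliding clamp fell while most of its loader rose. Pcna (chr2:132091082-132095234, minus strand) was by far the most abundant transcript of the set, at 305 CPM per kb of exon in the untreated control where the next, Pold4, had 23.9. It stood at 726, 744 and 728 CPM in the untreated libraries and 679, 664 and 636 CPM with eGFP supernatant, against 522, 553 and 515 CPM in the Ifnb1eGFP supernatant libraries and 578, 599 and 581 CPM with rIFNβ. The 4 conditions did not overlap each other, and the mean IFNβ effect was a fall of 0.32 on the log2 scale (standard error 0.03, adjusted p = 1.83e-06).

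Rfc3, a clamp loader subunit, stood at 7.53, 8.28 and 8.99 CPM in the untreated libraries and 8.54, 7.85 and 9.86 CPM with eGFP supernatant, compared with 18.1, 18.6 and 18.2 CPM in the Ifnb1eGFP supernatant libraries and 20.6, 18.9 and 20.7 CPM with rIFNβ. It rose by 1.07 ± 0.09 between the supernatants (adjusted p = 1.22e-06) and by 1.27 ± 0.09 with rIFNβ (adjusted p = 2.76e-07). Rfc1, the large loader subunit, stood at 53.5, 49.6 and 50.2 CPM in the untreated libraries and 49.2, 49.1 and 50.6 CPM with eGFP supernatant, against 77.7, 66.3 and 69.4 CPM in the Ifnb1eGFP supernatant libraries and 68.2, 68.6 and 68.8 CPM with rIFNβ. It rose by 0.47 ± 0.04 in the mean effect (adjusted p = 7.4e-07), without overlap. Rfc4 and Rfc2 rose by 0.50 and 0.26, and Rfc5 had a difference of 0.02 with a 95% interval of -0.06 to 0.11. The gene spans of Rfc5 and Rfc2, introns included, share 10520 and 2542 bases with those of Wsb2 and Lat2 on the other strand. Wsb2 and Lat2, both abundant, fell by 0.92 and 0.57. Rfc4 shares 368 bases with Eif4a2 on the other strand, which rose by 0.45. Lig1 likewise shares 1459 bases with Zswim9, which rose by 0.61. How the counting used strand was not given in the sources used here.

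Single-strand binding and nucleotide supply had the smallest medians of all roles, 0.29 and 0.10 in the mean effect. Rpa2, the middle subunit of replication protein A, stood at 10.1, 13.1 and 12.4 CPM in the untreated libraries and 11.4, 12.1 and 12.5 CPM with eGFP supernatant, against 12.6, 15.8 and 14.7 CPM in the Ifnb1eGFP supernatant libraries and 15.7, 16.7 and 17.1 CPM with rIFNβ. It rose by 0.37 ± 0.07 in the mean effect (adjusted p = 0.000814), with 1 Ifnb1eGFP library inside the range of the controls. Between the supernatants its rise of 0.26 (adjusted p = 0.0464) was called again when Ifnb1eGFP supernatant replicate 1 was left out, but not when any of the other 5 libraries was (adjusted p 0.0626 to 0.143) or under RLE factors, no filter, only the compared conditions or DESeq2 (0.0640 to 0.0937). Rpa1, the large subunit, stood at 53.9, 58.6 and 57.3 CPM in the untreated libraries and 51.4, 55.3 and 53.9 CPM with eGFP supernatant, compared with 55.8, 60.1 and 57.8 CPM in the Ifnb1eGFP supernatant libraries and 59.8, 60.8 and 64.1 CPM with rIFNβ. Its rise of 0.12 ± 0.03 (adjusted p = 0.0112) was the smallest called, its groups overlapped, and Rpa3 was not called (0.29, 95% interval 0.02 to 0.55, adjusted p = 0.0556).

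Tyms, which makes thymidylate, stood at 4.26, 4.77 and 4.87 CPM in the untreated libraries and 4.67, 5.26 and 6.02 CPM with eGFP supernatant, against 6.498, 6.63 and 6.02 CPM in the Ifnb1eGFP supernatant libraries and 7.001, 6.95 and 6.72 CPM with rIFNβ. It rose by 0.57 ± 0.10 with rIFNβ (adjusted p = 0.000443) and by 0.26 ± 0.10 between the supernatants (adjusted p = 0.0393), where the libraries overlapped and the call was lost without replicate 1 or 2 of either supernatant (adjusted p 0.0907 to 0.149) and under RLE factors, no filter, only the compared conditions and DESeq2 (0.0764 to 0.168). Rrm1, the large subunit of ribonucleotide reductase, stood at 42.9, 47.5 and 46.3 CPM in the untreated libraries and 42.6, 49.8 and 47.6 CPM with eGFP supernatant, against 45.1, 49.7 and 51.8 CPM in the Ifnb1eGFP supernatant libraries and 44.9, 50.4 and 53.0 CPM with rIFNβ. All conditions overlapped, and the mean effect was 0.09 with a 95% interval of -0.03 to 0.22 (adjusted p = 0.167). Rrm2, its small S-phase subunit, gave 0.10 with an interval of -0.09 to 0.28 (adjusted p = 0.327), so a rise as large as that of the helicase subunits lay outside both intervals.

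The maturation of Okazaki fragments held the sharpest contrast. Dna2 (chr10:62782733-62809965, plus strand), the nuclease and helicase that trims long flaps, stood at 9.82, 9.92 and 10.4 CPM in the untreated libraries and 8.72, 9.33 and 9.49 CPM with eGFP supernatant, compared with 3.08, 3.40 and 3.74 CPM in the Ifnb1eGFP supernatant libraries and 3.74, 3.51 and 4.35 CPM with rIFNβ. It fell by 1.43 between the supernatants (standard error 0.10, adjusted p = 2.35e-07) and by 1.38 with rIFNβ (standard error 0.10, adjusted p = 2.67e-07). Lig1, which seals the fragments, stood at 18.4, 20.3 and 22.0 CPM in the untreated libraries and 17.8, 20.6 and 20.6 CPM with eGFP supernatant, against 29.7, 38.6 and 37.4 CPM in the Ifnb1eGFP supernatant libraries and 34.2, 41.0 and 42.3 CPM with rIFNβ. It rose by 0.90 ± 0.08 in the mean effect (adjusted p = 1.53e-06), and the flap nuclease Fen1 rose by 0.35 ± 0.06 (adjusted p = 0.000461).

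Chromatin assembly factor 1, which places histones behind the fork, rose in both of its listed subunits. Chaf1b stood at 10.7, 11.3 and 12.04 CPM in the untreated libraries and 10.8, 12.4 and 11.6 CPM with eGFP supernatant, against 13.5, 17.2 and 16.5 CPM in the Ifnb1eGFP supernatant libraries and 16.3, 17.5 and 19.1 CPM with rIFNβ, and rose by 0.53 ± 0.07 (adjusted p = 3.56e-05). Chaf1a stood at 16.9, 18.6 and 18.5 CPM in the untreated libraries and 17.4, 18.6 and 20.0 CPM with eGFP supernatant, compared with 17.3, 23.6 and 22.7 CPM in the Ifnb1eGFP supernatant libraries and 20.4, 23.1 and 26.1 CPM with rIFNβ. Its rise of 0.28 ± 0.08 (adjusted p = 0.0131) came with overlapping libraries, and between the supernatants alone it was not called (0.19, adjusted p = 0.208).

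Whether the source of IFNβ or the supernatant itself mattered was asked next. By edgeR, none of the 47 genes was called between Ifnb1eGFP supernatant and rIFNβ, where 0.16% of all genes were, and 5 had an unadjusted p under 0.05. The smallest p belonged to Pcna, Orc2 and Orc4, with differences (Ifnb1eGFP supernatant minus rIFNβ) of -0.15 (95% interval -0.24 to -0.05, adjusted p = 0.415), 0.17 (0.05 to 0.30, adjusted p = 0.442) and 0.14 (0.02 to 0.27, adjusted p = 0.56). Orc2 stood at 36.4, 33.1 and 33.7 CPM with Ifnb1eGFP supernatant and 29.4, 31.3 and 30.6 CPM with rIFNβ, and Orc4 at 35.1, 31.7 and 32.6 CPM and 30.5, 29.4 and 30.0 CPM, in neither case overlapping. DESeq2 called 1 gene, Pcna (adjusted p = 0.0072). When Ifnb1eGFP supernatant replicate 2 was left out, edgeR called 5 genes lower than with rIFNβ: Gins2, Pold1, Pold2, Pold4 and Pcna, by 0.18 to 0.81 on the log2 scale, beside 5.59% of all genes lower and 1.27% higher in that fit. The widest interval was that of Pold1, -0.97 to 0.12.

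Between eGFP supernatant and the untreated control none of the 47 genes was called either, beside 0.299% of all genes, and 2 had an unadjusted p under 0.05. Pcna was 0.15 lower (95% interval -0.24 to -0.06, adjusted p = 0.249) with all 3 libraries below the controls, and DESeq2 called it (adjusted p = 0.000647), the only one of the 47. Pold3 was 0.10 higher (adjusted p = 0.621) and Tyms 0.20 higher (95% interval -0.02 to 0.42, adjusted p = 0.691). The interaction, which asks whether the IFNβ effect differs with and without supernatant, was called for none of the 47 genes by edgeR or DESeq2 and by edgeR for 0% of all genes, with 2 of the 47 at an unadjusted p under 0.05. Its smallest p were those of Orc2 (0.22, 0.05 to 0.39), Tyms (-0.31, -0.61 to -0.0037) and Orc4 (0.16, -0.01 to 0.33), each at an adjusted p of 0.926. With eGFP supernatant replicate 2 left out, 0 of the 47 were called in the interaction or between eGFP supernatant and the untreated control. The comparisons share libraries, so each is given by its own values alone.

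Other genes of the cell cycle, from lists written for this work, were set beside the 47, again against 36.1% of all genes higher and 30.1% lower. Of 46 further genes of fork protection, origin firing, dNTP supply and maintenance, 34 rose and 0 fell in the mean effect, with a median log2 fold change of 0.45. Timeless, a fork protection factor, went from 4.88 to 7.58 CPM over the 6 libraries without IFNβ to 18.3 to 25.0 CPM over those with it, a rise of 1.93 (adjusted p = 1.17e-08). Samhd1, a dNTP hydrolase that is itself an interferon-stimulated gene, rose by 1.64 from means of 349 and 338 CPM to 1075 and 1072 CPM, and Slbp, the histone mRNA binding protein of S phase, by 0.73.

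G1/S control genes were divided, with 18 of 38 higher, 12 lower and a median of 0.06. Ccnd2, a D-type cyclin, and Rbl1, a pocket protein that restrains E2F, rose by 1.91 (adjusted p = 8.8e-10) and 1.16 (adjusted p = 7.32e-11). The CDK inhibitor Cdkn2b fell by 2.54 (adjusted p = 7.85e-09), from 2.96 to 4.49 CPM without IFNβ to 0.586 to 0.949 CPM with it. Mitotic genes leaned the other way from the replication genes: of 34 G2/M genes 7 rose and 17 fell, with a median of -0.20. Cenpa, the centromeric histone, fell by 1.21 (adjusted p = 5.63e-06) and the mitotic cyclin Ccnb1 by 0.74 (adjusted p = 6.11e-06), whereas the spindle factor Tpx2 rose by 1.53 (adjusted p = 6.74e-10). The G2/M median was -0.39 between the supernatants, with 2 higher and 20 lower beside 30.1% and 25% of all genes tested. With rIFNβ it was -0.06, with 8 higher and 10 lower, near the 30.7% and 24.6% of all genes. Between eGFP supernatant and untreated control, 33 of the 34 genes had a positive difference, none called, beside 7665 of the 15033 genes tested. Without eGFP supernatant replicate 2 the G2/M counts were 5 higher and 15 lower in the mean effect and 2 and 15 between the supernatants, and those of the G1/S genes 18 and 12 in the mean effect. All genes tested then gave 34.2% higher and 28.5% lower in the mean effect, and 26.2% and 21.7% between the supernatants.

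DNA polymerases and partners outside the replisome gave 7 higher and 0 lower of 14 tested (15 listed), with a median of 0.19. Among them Polb, the base excision repair polymerase, rose by 0.96, the primase-polymerase Primpol by 0.89 and Mad2l2, a subunit of polymerase zeta, by 1.40. All 14 interferon-stimulated genes listed rose, with a median of 5.46, including Oas1a (2.93) and Irf9 (1.65). Without eGFP supernatant replicate 2, 33 of the 46 further replication genes, 6 of the 14 polymerases and 14 of the 14 interferon-stimulated genes rose and 0 fell in the mean effect. Of all genes, 34.2% rose and 28.5% fell in that fit.

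**Figure D4:**
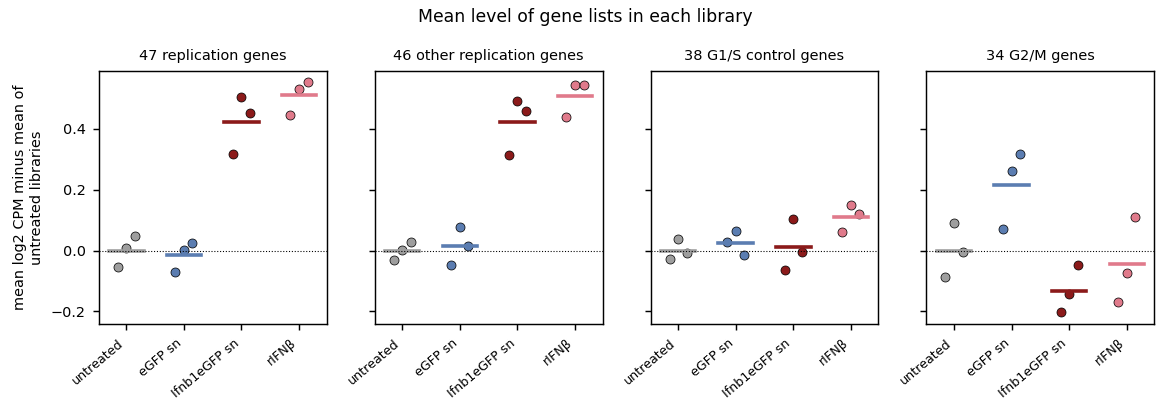
Mean log2 CPM of each gene list in each library (points, with the condition mean as a line), relative to the mean of the untreated libraries. The 47 replication genes lie at 0.32 to 0.50 with Ifnb1eGFP supernatant and 0.45 to 0.55 with rIFNβ, above all libraries without IFNβ (-0.07 to 0.05), while the 34 G2/M genes lie at -0.20 to 0.11 with IFNβ against -0.09 to 0.09 in the untreated libraries, which overlap them, and 0.07 to 0.32 with eGFP supernatant.

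Within each condition the 47 genes shared a lean between libraries. Replicate 1 gave the lowest value of its condition for 27 of the 47 genes in the untreated control, 30 with eGFP supernatant, 30 with Ifnb1eGFP supernatant and 34 with rIFNβ. The same count was not made over all genes, so whether this lean is particular to the 47 is not known. The mean log2 CPM of the set was still 3.82 to 3.94 in every library without IFNβ and 4.21 to 4.45 in every library with it.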

How the data were processed

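The deposited matrix holds expected counts per Ensembl gene, which the authors made with RSEM 1.3.3 (version per the submitters' processing notes) from TruSeq Stranded Total RNA libraries. The genome is given as "GRCm39 mm10", which joins 2 builds. Annotation release and strand setting are not given in the sources used here. Of the values, 12% were not whole and were rounded. Genes were named from GENCODE M39 (56017 of 56748 IDs matched). Library totals of 31526034 to 45348457 limit the precision of low genes.

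In R 4.3.3, edgeR 4.0.16 was used with its expression filter, TMM factors and 1 quasi-likelihood fit over all 12 libraries by condition (4 groups of 3), with Benjamini-Hochberg adjustment over 15033 genes. CPM were scaled by TMM factors, list levels used log2 CPM with a prior count of 2, and 95% intervals are t-based. The script was tested on simulated data. Genes with every library printed were, per role, the 2 with the smallest p in the mean IFNβ effect and those called against the set's direction, and for the supernatant comparisons and interaction the 3 with the smallest p. Of other lists the 3 with the smallest p are named, except 1 gene that is not reported here. Prim1, Cdt1 and Pold1 were added after their values were seen. The members, lists and tests were chosen with earlier results of these data known. Alternatives were RLE factors, library totals, DESeq2 1.42.0, no filter, only the compared conditions, a replicate block, other thresholds and leaving out each library. Counts without eGFP supernatant replicate 2 for other lists, the log2 fold change of 1 and the library separation were added after seeing the data. No deposited column lacked a sample (0).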

Additional observations from a re-analysis of the deposited data

How the results depend on the processing

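Of the 41 genes called in the mean IFNβ effect, 38 were called under all 17 alternatives and the others, Orc2, Orc6 and Rpa1, were not under RLE factors, DESeq2 or no filter (Orc2 and Orc6 also not without Ifnb1eGFP supernatant replicate 1). Thresholds moved the counts most: 0 genes were higher and 0 lower at a log2 fold change of 2 and an adjusted p of 0.01 in each IFNβ comparison, and at 1 and 0.05 there were 6 higher and 1 lower in the mean effect and between the supernatants and 7 higher and 1 lower with rIFNβ. DESeq2 called 1 gene lower, Pcna, between Ifnb1eGFP supernatant and rIFNβ and 1, Pcna again, between eGFP supernatant and untreated control. Leaving out a library gave 37 to 39 higher in the mean effect, 28 (without Ifnb1eGFP supernatant replicate 2) to 34 between the supernatants and 32 to 34 with rIFNβ, with 3 lower in each case, and 0 to 5 lower between Ifnb1eGFP supernatant and rIFNβ, where the 5, without Ifnb1eGFP supernatant replicate 2, stood beside 5.59% of all genes lower. Between the supernatants, changed settings other than left-out libraries also lost the calls of Tyms, Rpa2, Cdc45, Cdt1 and Pole2 and gained that of Pold1. With rIFNβ they lost Orc4 and Gins3. There edgeR gained Gins2 with only the compared conditions (adjusted p = 0.0286) and Rpa1 under library totals (0.0461). Library totals also gained Rpa3 in the mean effect (edgeR adjusted p = 0.0444). The causes were not tested.

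Directions reversed only for differences that were not called. Rfc5 in the mean effect was -0.0178 under RLE factors and -0.0123 under DESeq2, and ran from -0.00665 to 0.0468 with a library left out, and with rIFNβ from -0.0413 to 0.0245. Pold2 ran from -0.0396 to 0.0999 in the mean effect, and between the supernatants it was -0.0162 under RLE factors and -0.0107 under DESeq2 and ran from -0.195 to 0.129. Between the supernatants Gins2 ran from -0.0945 to 0.157, and Rrm2 was -0.0219 under RLE factors, -0.00581 without the filter and -0.0163 under DESeq2 and ran from -0.0367 to 0.0575. With rIFNβ, Orc2 was -0.0349 under RLE factors, -0.0212 with only the compared conditions and -0.0294 under DESeq2 and ran from -0.00892 to 0.0374.

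With the replicate number as a block, 40 genes were higher and 3 lower in the mean effect, 35 and 3 between the supernatants, 38 and 3 with rIFNβ and 0 elsewhere, beside 37.8% and 31.5%, 32.2% and 26.7%, and 32.8% and 26% of all genes. The genes gained were Rpa3 (adjusted p = 0.0261) and Rrm1 (0.0164) in the mean effect, Rpa1 between the supernatants, and Rpa1, Rrm1 (0.0322) and Rrm2 with rIFNβ. Libraries with the same number deviated together with r over 0.1 in 13 of 18 pairs (0.058 to 0.25). When each library was set against each other condition, its closest match had its own number in 35 of 36 cases. These cases reuse the same pairs and are a hint of pairing from the data and not from the design.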
